A study of Mus musculus with 3 samples.

Results

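The genes of microglia, of the macrophages at the borders of the brain and of the complement cascade were described in whole hippocampus of wild-type (WT) C57BL/6 mice at postnatal day 14. The set was taken by symbol from a fixed list of 53 genes, and all 53 were found among the 39377 rows of the deposited expression table. A single group of 3 libraries of RNA from tissue of mixed cell types was analysed here, called libraries 1, 2 and 3, with no treated, mutant or older group beside it. Nothing in the labels ties the libraries to separate animals, and the p-values below therefore rest on a spread between libraries that may be technical. With no condition to compare, levels were compared between genes inside the same libraries. Levels are FPKM, fragments counted on each kilobase of a transcript for every 1000000 fragments mapped, a unit that divides by transcript length. A value after ± is the SD (n = 3 libraries). The depth, estimated from the smallest steps in the values, was about 3690000, 4090000 and 5890000 fragments. The tissue is bulk, so more cells of a type and more RNA per cell cannot be told apart, and the cells that gave each value were not measured.

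Microglia are the resident macrophages of the brain. They enter it in the embryo, survive on signals through the receptor encoded by Csf1r, and in the surveying state express a set of receptors, often called homeostatic, that includes P2ry12, Tmem119 and Cx3cr1. Perivascular and other border macrophages lie along vessels, in the meninges and in the choroid plexus, and are recognised by genes such as Mrc1, Lyve1 and Cd163. In the classical complement pathway the C1q complex, built from the chains of C1qa, C1qb and C1qc, starts a protease cascade that cleaves C4 and C3, and in the developing brain C1q and C3 have been linked to the removal of synapses by microglia. Genes such as Spp1, Gpnmb, Itgax, Clec7a and Cst7 are known from activated microglia of myelinating white matter, ageing and disease. Here the members were sorted by general knowledge into 7 complement genes, 14 homeostatic genes, 14 genes of myeloid cells in general, 6 perivascular genes, 8 genes of activated cells, 3 signals that other cells also express (Csf1, Cd47 and Sirpa) and Hexim1. Hexim1 encodes an inhibitor of the transcription elongation factor P-TEFb that cells express in general, and it is not a microglial marker.

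Several members are neighbours in the genome (GRCm38), which makes it possible to compare genes of 1 locus. C1qb (4:136880126-136886200), C1qc (4:136889801-136892936) and C1qa (4:136895916-136898844) lie side by side on the minus strand of chromosome 4, with gaps of 3600 and 2979 bases. P2ry13 (3:59207892-59210882) and P2ry12 (3:59216271-59262985) lie 5388 bases apart on the minus strand of chromosome 3. Tmem119 and Selplg on chromosome 5 are 17401 bases apart, and Itgam and Itgax on chromosome 7 are 11034 bases apart. The promoters of C1qb and C1qc, whose levels were close, and of P2ry12 and P2ry13, whose levels were far apart, are printed below from RefSeq (GRCm38.p6), each from 250 bases before to 50 bases after the start and 5′ to 3′ on the gene's own strand. Capitals mark matches, on either strand, to GAGGAAG or GGAAGT, letters found in binding sites of PU.1, the factor encoded by Spi1, and of related ETS factors.

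C1qb, chr4:136886151-136886450, minus strand: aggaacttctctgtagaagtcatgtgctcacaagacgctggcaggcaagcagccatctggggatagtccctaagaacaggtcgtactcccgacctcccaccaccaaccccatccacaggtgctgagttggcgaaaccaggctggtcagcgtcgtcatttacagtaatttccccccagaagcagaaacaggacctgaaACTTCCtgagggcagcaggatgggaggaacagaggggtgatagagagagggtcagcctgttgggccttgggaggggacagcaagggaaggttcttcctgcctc

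C1qc, chr4:136892865-136893164, minus strand: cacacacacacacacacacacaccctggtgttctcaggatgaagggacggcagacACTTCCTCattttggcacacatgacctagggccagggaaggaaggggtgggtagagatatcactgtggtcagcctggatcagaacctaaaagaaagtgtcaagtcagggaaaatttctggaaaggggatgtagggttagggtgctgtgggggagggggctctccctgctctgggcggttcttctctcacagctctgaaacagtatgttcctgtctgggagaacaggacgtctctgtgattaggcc

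P2ry12, chr3:59262936-59263235, minus strand: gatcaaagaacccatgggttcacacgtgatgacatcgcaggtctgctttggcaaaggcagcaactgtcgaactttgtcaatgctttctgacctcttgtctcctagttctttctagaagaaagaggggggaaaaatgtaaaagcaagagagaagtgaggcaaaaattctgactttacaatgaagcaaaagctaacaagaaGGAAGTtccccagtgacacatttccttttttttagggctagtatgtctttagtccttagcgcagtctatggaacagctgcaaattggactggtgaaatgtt

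P2ry13, chr3:59210833-59211132, minus strand: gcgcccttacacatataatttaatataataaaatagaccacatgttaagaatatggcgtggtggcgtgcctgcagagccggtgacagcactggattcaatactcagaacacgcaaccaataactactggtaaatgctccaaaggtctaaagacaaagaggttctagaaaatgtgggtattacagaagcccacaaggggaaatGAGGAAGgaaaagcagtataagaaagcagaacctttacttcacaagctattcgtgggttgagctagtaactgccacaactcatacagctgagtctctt

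The windows of C1qb and P2ry12 held 1 match to GGAAGT each and 0 to GAGGAAG, that of P2ry13 held 1 match to GAGGAAG and 0 to GGAAGT, and that of C1qc held 1 match to each, overlapping in the same stretch. RefSeq promoter windows were found for 40 members, 50 windows in all. GAGGAAG was present in 14 of these 50 windows (28%) and in 13.6% of all 32851 windows of the same 300 bases. GGAAGT was present in 21 of 50 (42%) and in 23.8% of all windows. The longer GAGGAAGT, which contains both, was found in 5 of 50 windows (10%), those of C1qc, F13a1, Hpgds, Pf4 and Spp1, against 3.2% of all windows. The core of the interferon-stimulated response element, a binding site for interferon regulatory factors, was found in 2 of 50 (4%), those of Aif1 and Spp1, against 3.44%. These 4 motifs were the ones searched, both strands were read, and a match is a description of letters and not a measured site.

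Every member was above 0 in at least 1 library, and their means ran from 0.0433 FPKM for C3 to 85.4 FPKM for Sirpa. The order began with Sirpa, Tyrobp, the 3 C1q chains, Cd47 and P2ry12, and ended with C5ar1, Cst7, Itgax and C3. The median over the 53 members was 5.83, 5.97 and 6.21 FPKM in libraries 1, 2 and 3, between the median of 4.52, 4.57 and 4.48 FPKM over all 19046 genes above 0 and that of 10.5, 10.3 and 10.2 FPKM over the 13337 genes whose mean reached 1 FPKM. Of the 52 steps between neighbours in the order of means, 6 separated genes whose values did not overlap between libraries, so most neighbours in the order did not differ beyond their spread. The steps without overlap were those below Sirpa, Tyrobp, P2ry12, Siglech, P2ry13 and Cst7.

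**Figure D1:**
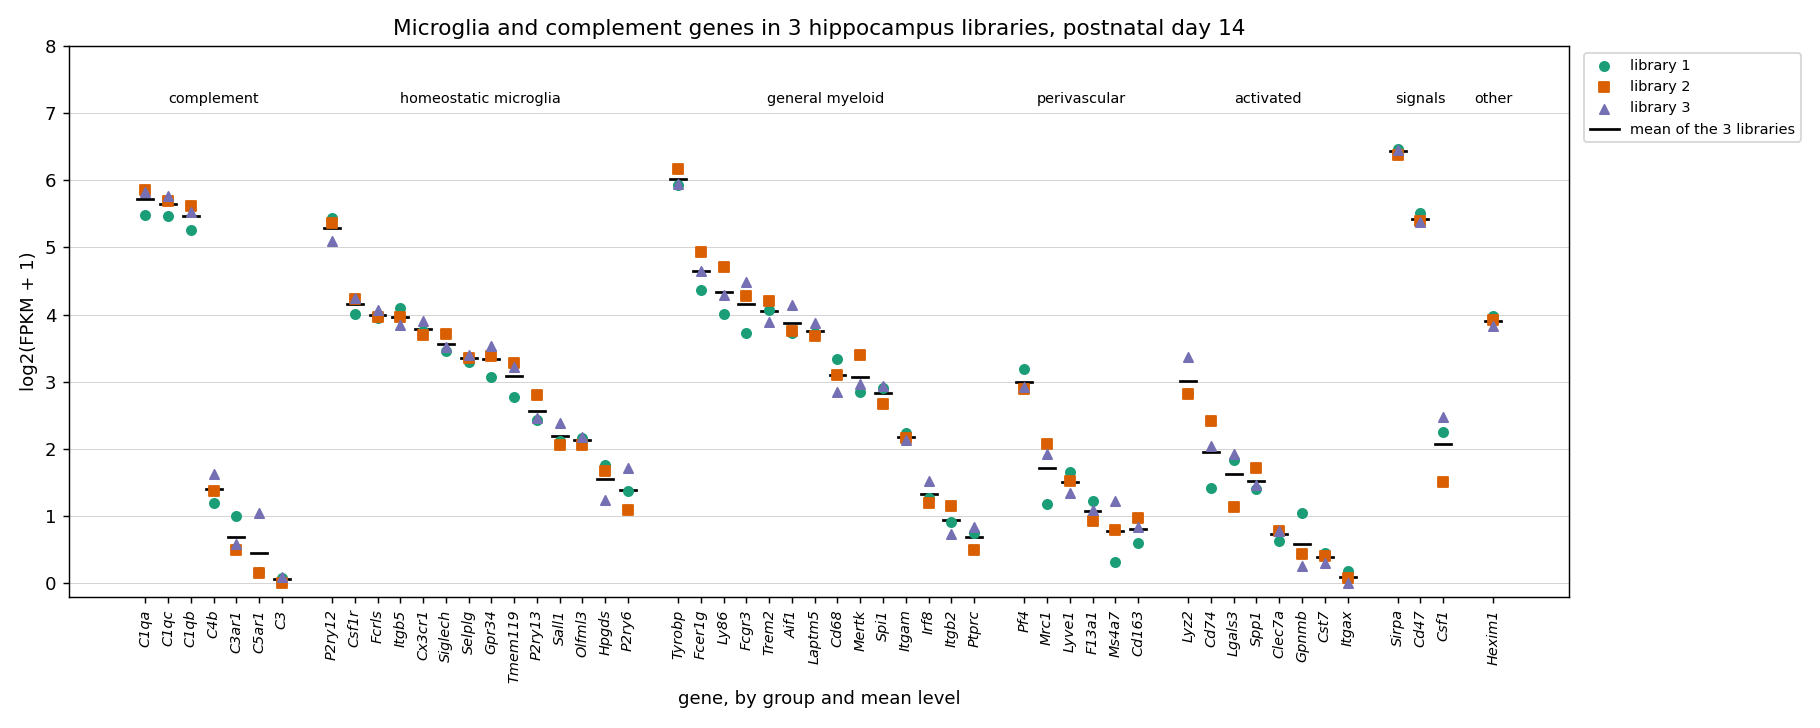
Each point is log2(FPKM + 1) of a member in 1 library (y axis), with genes on the x axis sorted by group and mean, and black bars are means of the 3 libraries. The C1q chains, P2ry12, Tyrobp, Sirpa and Cd47 stand above the rest, and the remaining complement genes, with C4b at a mean of 1.66 FPKM as the highest, lie near the bottom.

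All genes whose mean reached 1 FPKM were compared with the median gene of the same library on the log2(FPKM + 1) scale, asking for a difference of more than 2-fold (limma's treat test, two-sided, Benjamini-Hochberg adjusted over all 13337 genes, calls at adjusted p under 0.05). The filter kept 42 members and left 11 untested, among them C3, C3ar1 and C5ar1. Of the 42, 7 were called higher (16.7%), where 26% of all genes were, and 13 lower (31%), where 22.3% of all genes were. The 7 were Sirpa, Tyrobp, C1qa, C1qc, C1qb, Cd47 and P2ry12, each higher in 3 of 3 libraries. With the same test against Cx3cr1, the fractalkine receptor gene of microglia and monocytes, the same 7 were higher of 41 tested members (17.1%), where 21.6% of all genes were, and 14 were lower (34.1%), where 27.7% of all genes were. The remaining 20 members were not called, so a distance of more than 2-fold from Cx3cr1 was not shown for them. The counts against the median gene depend on which low genes define it: with no filter on low values, 18 members were called higher.

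**Figure D2:**
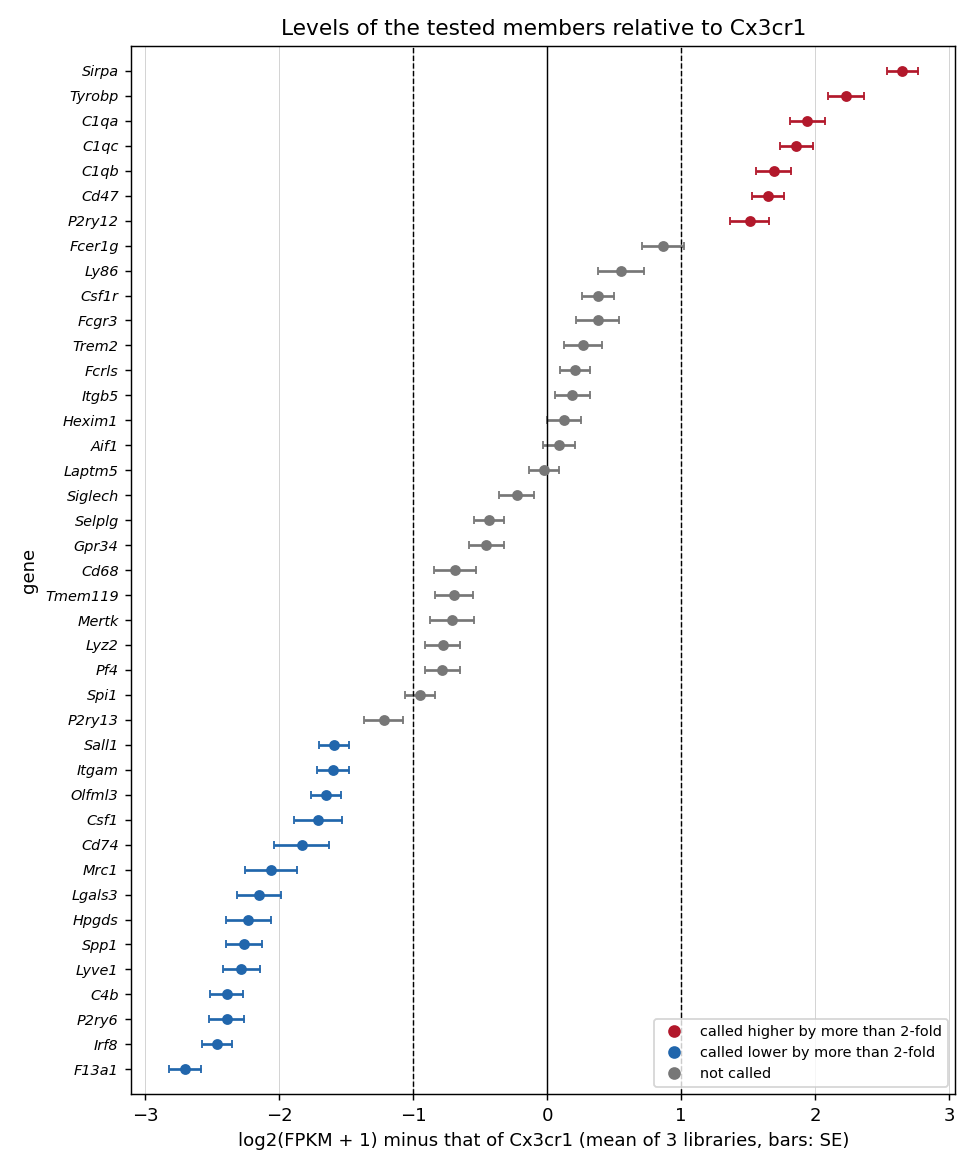
Points are the mean difference in log2(FPKM + 1) between each tested member and Cx3cr1 over 3 libraries (x axis) with SE bars, sorted by size (y axis), and dashed lines mark the 2-fold limits of the test. The 7 members called higher run from 1.51 for P2ry12 to 2.65 for Sirpa, and the 14 called lower run from -1.59 for Sall1 to -2.7 for F13a1.

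Homeostatic genes formed a ladder of levels, and 14 of 14 had a mean of at least 1 FPKM. So did 13337 of the 19046 genes above 0 and 12 of 14 general myeloid genes. P2ry12, the ADP receptor through which microglia sense nucleotides, led at 42.2, 40.1 and 33.1 FPKM, 1.51 log2 units above Cx3cr1 (SE 0.144, adjusted p = 0.0132 by limma), and it was above Cx3cr1 in 3 of 3 libraries. Leaving out library 2 ended that call (limma adjusted p = 0.0676). Csf1r, the receptor for colony stimulating factor 1 and interleukin 34, stood at 15.0, 17.9 and 18.1 FPKM. It shares 873 bases at 100% identity with Hmgxb3, an overlapping gene on the opposite strand at 6.11, 5.94 and 5.74 FPKM. Without a stated strand setting, reads of that stretch cannot be assigned. Cx3cr1 itself was at 12.46, 11.97 and 13.97 FPKM. Its values and those of Csf1r did not overlap, but the difference of 0.381 log2 units (SE 0.121) was under 2-fold and was not called. Fcrls, an Fc receptor-like gene of microglia, was at 14.5, 14.6 and 15.7 FPKM, and Itgb5, an integrin beta chain gene that many cells express, at 16.2, 14.6 and 13.4 FPKM. None of Csf1r, Fcrls and Itgb5 was called different from Cx3cr1.

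Further homeostatic genes followed in the order of means. The lectin gene Siglech had 9.97, 12.1 and 10.4 FPKM, the P-selectin ligand gene Selplg 8.84, 9.22 and 9.56 FPKM, and the lysophospholipid receptor gene Gpr34 7.44, 9.47 and 10.6 FPKM. Tmem119, a membrane protein gene used to tell microglia from other macrophages, was at 5.83, 8.74 and 8.28 FPKM. Library 1 was the lowest for each of these 4 genes. None of them was called different from Cx3cr1. Tmem119 was 0.202 ± 0.0578 times P2ry12, and below 1 in 3 of 3 libraries.

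The lowest means among the homeostatic genes were those of P2ry13, Sall1, Olfml3, Hpgds and P2ry6. The values of P2ry13 overlapped those of Tmem119 and did not overlap those of Sall1, and P2ry13 was not called different from Cx3cr1. Sall1, the transcription factor gene that keeps microglial identity, was at 3.33, 3.18 and 4.25 FPKM, 1.59 log2 units below Cx3cr1 (difference -1.59, SE 0.113, adjusted p = 0.00247). Olfml3, which encodes a secreted olfactomedin-like protein, was at 3.48, 3.15 and 3.53 FPKM, and Hpgds, a prostaglandin D synthase gene, at 2.39, 2.20 and 1.35 FPKM. The UDP receptor gene P2ry6, linked to phagocytosis, was at 1.59, 1.13 and 2.28 FPKM and rested on about 41 fragments over the 3 libraries. Of the 13 homeostatic genes tested against Cx3cr1, 1 was called higher, 4 lower (Sall1, Olfml3, Hpgds and P2ry6) and 8 were not called. Of all genes tested, 21.6% were called higher than Cx3cr1 and 27.7% lower. Against the median gene the same 1 and 4 of 14 homeostatic genes were called, where 26% of all genes were higher and 22.3% lower. The limma calls of Sall1 (adjusted p = 0.0388) and Olfml3 (adjusted p = 0.0106) ended when library 2 was left out (0.142 and 0.0518). That of Sall1 also ended when library 1 was left out (0.133).

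The purinergic receptor genes of the locus on chromosome 3 differed widely. P2ry12 was 7.9 ± 1.54 times P2ry13, which stood at 4.38, 5.97 and 4.51 FPKM, and 25.5 ± 10.5 times P2ry6 from another chromosome. The ratio to P2ry13 was above 1 in 3 of 3 libraries and smallest in library 2, at 6.71. Both genes lie inside Med12l on the opposite strand, and exons of P2ry12 and Med12l overlap. Med12l was at 2.09, 1.98 and 1.78 FPKM. Whether counting used strand is not given in the sources used here, so reads of the shared stretch cannot be assigned.

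Of the complement genes, the 3 chains of C1q were high and the other 4 members low. C1qa stood at 43.8, 56.7 and 56.0 FPKM, C1qc at 43.1, 50.7 and 53.6 FPKM and C1qb at 37.4, 48.3 and 45.3 FPKM. All 3 chains were lowest in library 1, and their ranges overlapped. C1qa was 1.19 ± 0.0365 times C1qb, C1qc was 1.13 ± 0.0701 times C1qb, and C1qa was 1.06 ± 0.0521 times C1qc, each above 1 in 3 of 3 libraries. The chains were 1.94 (C1qa), 1.86 (C1qc) and 1.69 (C1qb) log2 units above Cx3cr1 with SEs of 0.131, 0.12 and 0.131 (limma adjusted p = 0.000572, 0.000597 and 0.00247). Together they carried 98.1% ± 0.515 of the summed FPKM of the 7 complement members. The C1q complex holds its chains in equal numbers, and a ratio near 1 here is one of transcripts per length only.

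Downstream of C1q the levels dropped steeply. C4b, the gene of the C4 protein that C1s cleaves, was at 1.29, 1.58 and 2.10 FPKM, with a difference of -2.39 log2 units from Cx3cr1 (SE 0.121, adjusted p = 8.07e-05). C4b shares a stretch of 5378 bases at 96.0% identity with C4a, listed at 0, 0.05 and 0.98 FPKM, so reads may be split between the copies. C3, the central protein of the cascade, was listed at 0.06, 0 and 0.07 FPKM, about 1, 0 and 2 fragments. The receptor genes for the cleavage peptides C3a and C5a were also low, with C3ar1 at 1.00, 0.41 and 0.50 FPKM and C5ar1 at 0.12, 0.11 and 1.06 FPKM. C3ar1 was above C5ar1 in 2 of 3 libraries and below it in library 3, with a mean ratio of 4.18 that was 2.1 without library 1, and with about 34 and 16 fragments over all libraries this depth did not resolve their order. C3, C3ar1 and C5ar1 fell under the filter and were not tested.

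The other genes of the complement system, taken from a list of 30 that holds no member, showed regulators and C1q-related genes above proteases. Clu, encoding clusterin, an inhibitor of the terminal complex that astrocytes express, was at 475 ± 89.2 FPKM, and C1qbp, encoding a mostly mitochondrial protein named for C1q binding, at 85.1 ± 5.65 FPKM. Susd4, a complement inhibitor gene, stood at 35.1 ± 2.13 FPKM, and the synaptic C1q-like gene C1ql3 at 27.8 ± 4.55 FPKM. The C1 inhibitor gene Serping1 was at 6.69 ± 1.1 FPKM, and Csmd1, a neuronal gene with complement control domains, at 2.44 ± 0.656 FPKM. The protease that acts next to C1q was low, with C1ra at 0.20, 0.44 and 0.37 FPKM, as was C1s1 at 0.20, 0.10 and 0.06 FPKM, and C7, Cfd and Cfi were listed at 0 in all libraries. Of the 17 tested, 4 were called higher than the median gene (23.5%, against 26% of all genes) and 5 lower (29.4%, against 22.3%).

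Genes of myeloid cells in general had a median of 10.5 ± 0.268 FPKM over 14 members, next to 9.15 ± 0.935 FPKM for the homeostatic group. Tyrobp, which encodes the adaptor DAP12, was the highest at 60.0, 70.7 and 60.5 FPKM, 2.23 log2 units above Cx3cr1 (SE 0.132, adjusted p = 0.000186). Its partner receptor gene Trem2 stood at 15.8, 17.4 and 13.8 FPKM, and Tyrobp was 4.08 ± 0.285 times Trem2, with similar ratios of 3.8, 4.07 and 4.37 in the 3 libraries. The second immune adaptor gene, Fcer1g, the Fc receptor gamma chain, was at 19.5, 29.5 and 24.2 FPKM, and the low-affinity IgG receptor gene Fcgr3 at 12.2, 18.3 and 21.5 FPKM. Fcgr3 shares 509 bases at 96.5% identity with Fcgr2b, at 2.30, 4.37 and 3.46 FPKM. Ly86, which encodes MD-1, was at 15.1, 25.2 and 18.6 FPKM. For Fcer1g, Fcgr3 and Ly86 library 1 was the lowest.

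Aif1, the gene of the microglial stain IBA1, had 12.2, 12.5 and 16.7 FPKM, and the lysosomal gene Laptm5 12.3, 11.9 and 13.6 FPKM. Cd68, a lysosomal glycoprotein gene used as a sign of phagocytic activity, was at 9.15, 7.57 and 6.21 FPKM, and Mertk, a phagocytic receptor gene that astrocytes also express, at 6.22, 9.58 and 6.84 FPKM. None of these 4 was called different from Cx3cr1. Of the transcription factor genes, Spi1 was at 6.48, 5.34 and 6.67 FPKM and Irf8 at 1.41, 1.29 and 1.87 FPKM. Spi1 was 4.1 ± 0.516 times Irf8, above it in 3 of 3 libraries, and Irf8 was called lower than Cx3cr1 (difference -2.46, SE 0.113, adjusted p = 5.02e-05).

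The subunits of complement receptor 3, the integrin that binds cleaved C3, were low. Itgam, its alpha chain and also called CD11b, was at 3.72, 3.49 and 3.40 FPKM (difference from Cx3cr1 -1.6, SE 0.12, adjusted p = 0.00301). It shares 3450 of its 4649 transcript bases at 100% identity with the overlapping same-strand gene Gm49368, listed at 0 in all libraries, so reads of that stretch may be split or left out. Its beta chain gene Itgb2 was at 0.89, 1.23 and 0.66 FPKM, 0.262 ± 0.0816 times Itgam and below it in 3 of 3 libraries. Itgax, the alpha chain CD11c and the neighbour of Itgam, was listed at 0.14, 0.06 and 0 FPKM, about 2, 1 and 0 fragments. Ptprc, the pan-leukocyte gene CD45, was at 0.68, 0.41 and 0.79 FPKM. Itgb2, Itgax and Ptprc were under the filter. Of the 12 general myeloid genes tested, 1 was higher than Cx3cr1, 2 were lower (Irf8 and Itgam) and 9 were not called. Of all genes tested, 21.6% were called higher than Cx3cr1 and 27.7% lower. Against the median gene the same 1 and 2 general myeloid genes were called, where 26% of all genes were higher and 22.3% lower. The limma call of Itgam (adjusted p = 0.0152) ended when library 2 (0.0591) or library 3 (0.0692) was left out.

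Perivascular and border macrophage genes were low apart from Pf4. The group median was 1.30, 1.42 and 1.44 FPKM, and the median of the homeostatic group was 6.58 ± 0.335 times as high, with ratios of 6.26, 6.56 and 6.93. Pf4, a chemokine gene of these macrophages and of platelets, was at 8.09, 6.43 and 6.60 FPKM and made up 50.5% ± 7.79 of the summed FPKM of the 6 genes. It comes from a transcript of 588 bases, so its level rested on about 9, 10 and 14 fragments. Mrc1, the mannose receptor gene CD206, was at 1.26, 3.21 and 2.78 FPKM, and the hyaluronan receptor gene Lyve1 at 2.14, 1.88 and 1.54 FPKM. F13a1, a coagulation factor gene, was at 1.34, 0.90 and 1.13 FPKM, the haemoglobin scavenger receptor gene Cd163 at 0.52, 0.97 and 0.79 FPKM, and Ms4a7 at 0.25, 0.74 and 1.34 FPKM. Of the 4 genes tested, Mrc1, Lyve1 and F13a1 were called lower than Cx3cr1 (differences of -2.06, -2.28 and -2.7, limma adjusted p = 0.00196, 0.000187 and 3.77e-05) and Pf4 was not. Of all genes tested, 27.7% were called lower than Cx3cr1. P2ry12 was 33.5, 12.5 and 11.9 times Mrc1, with a mean of 19.3 over 3 libraries and of 12.2 without library 1.

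Genes of activated microglia were low, with a group median of 1.35, 0.95 and 1.23 FPKM that lay below the perivascular and complement medians in libraries 2 and 3 and above both in library 1, and the homeostatic median was 7.98 ± 1.92 times as high. Lyz2, the lysozyme gene of macrophages, led at 6.11, 6.06 and 9.35 FPKM, and C1qb was 6.31 ± 1.57 times Lyz2. Lyz2 shares 1264 bases at 95.8% identity with Lyz1, at 0.27, 0 and 0.17 FPKM. Cd74, the invariant chain gene of antigen presentation, stood at 1.67, 4.33 and 3.12 FPKM, and the galectin-3 gene Lgals3 at 2.56, 1.19 and 2.81 FPKM. Spp1, the osteopontin gene, was at 1.64, 2.27 and 1.75 FPKM. Gpnmb, a membrane glycoprotein gene, was at 1.07, 0.35 and 0.19 FPKM, about 14, 5 and 4 fragments. The beta-glucan receptor gene Clec7a was at 0.54, 0.71 and 0.72 FPKM and the cystatin F gene Cst7 at 0.37, 0.33 and 0.23 FPKM. Clec7a, Cst7 and Itgax rested on about 4, 3 and 3 fragments over all 3 libraries, so whether any of them was expressed at a low level was not resolvable at this depth.

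Of the 4 activated genes tested, Spp1, Lgals3 and Cd74 were called lower than Cx3cr1 (differences of -2.26, -2.15 and -1.83, limma adjusted p = 0.00019, 0.000597 and 0.00782) and Lyz2 was not called. Of all genes tested, 27.7% were called lower than Cx3cr1. Leaving out library 3 ended the call of Cd74 (0.0546). Against the median gene Cd74 was called at adjusted p = 0.0493, and leaving out library 1 (0.134) or library 3 (0.11) ended it. Means under 1 FPKM were found for 4 of 8 activated, 2 of 6 perivascular and 3 of 7 complement genes, against 0 of 14 homeostatic and 2 of 14 general myeloid genes. Over all 19046 genes above 0, 5709 had a mean under 1 FPKM, a share near that of the perivascular genes. These counts and medians describe the lists as sorted here and carry no test.

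Ligand genes were compared with their receptors. Sirpa, the inhibitory receptor gene of myeloid cells and neurons, was at 87.1, 82.4 and 86.8 FPKM, and Cd47, its ligand gene and a signal against phagocytosis, at 44.6, 41.1 and 40.7 FPKM. Cd47 was 0.493 ± 0.0224 times Sirpa, and its values did not overlap with those of Sirpa. Both were called higher than Cx3cr1 (2.65 and 1.65 log2 units, adjusted p = 3.34e-05 and 0.0023). Csf1, a ligand of the Csf1r receptor, was at 3.78, 1.83 and 4.55 FPKM, 0.202 ± 0.0862 times Csf1r, with library 2 the lowest, and it was called lower than Cx3cr1 (difference -1.71, SE 0.178, adjusted p = 0.00829). The other ligand of that receptor, Il34, which neurons express, was at 30.9, 33.7 and 43.5 FPKM, 12 ± 5.57 times Csf1, and above it in 3 of 3 libraries. Cx3cl1, the neuronal fractalkine gene, was at 133, 121 and 138 FPKM, 10.2 ± 0.38 times its receptor gene Cx3cr1, a ratio that varied little between libraries (10.6, 10.1 and 9.91).

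**Figure D3:**
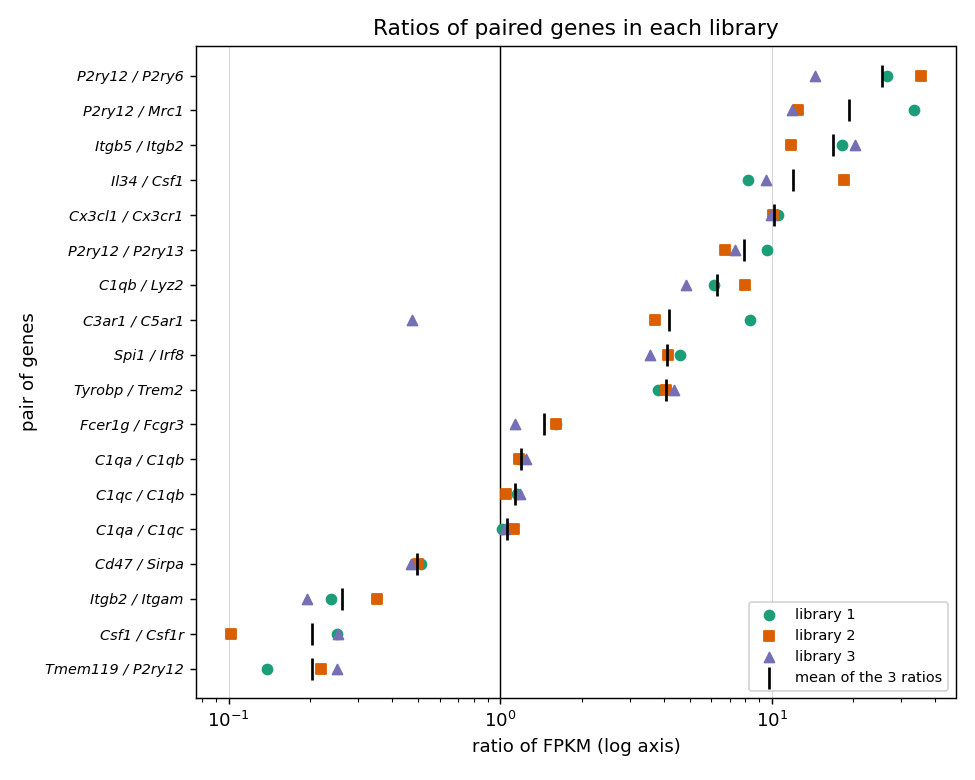
Points are the ratio of FPKM of 2 genes in each library (x axis, log scale) for the 18 pairs with no value of 0 (y axis), and black ticks are the mean of the 3 ratios. The C1q chains lie close to 1, Cd47 over Sirpa close to 0.493 and Cx3cl1 over Cx3cr1 close to 10.2, while C3ar1 over C5ar1 falls on both sides of 1.

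The ratios are descriptions, and an exact two-sided sign-flip test of 3 libraries gives no p under 0.25. For 6 of the 18 pairs 1 gene was a reference of a limma fit across all genes, and all 6 differences were called at more than 2-fold. Cx3cl1 was 3.26 log2 units above Cx3cr1 (adjusted p = 7.59e-06). Below P2ry12 lay P2ry13 (-2.73, adjusted p = 5.41e-08), P2ry6 (-3.9, 4.66e-10), Tmem119 (-2.2, 8.84e-06) and Mrc1 (-3.57, 4.33e-09), and Trem2 lay below Tyrobp (-1.96, 5.69e-05). The other 12 pairs were not tested. Hexim1, the member that is not a microglial gene, was at 14.8, 14.2 and 13.2 FPKM and was not called different from Cx3cr1. In a further list of 22 microglia and macrophage genes, high levels were found for the cathepsin D gene Ctsd at 167 ± 9.04 FPKM, the tetraspanin gene Cd9 at 154 ± 9.13 FPKM and the G-protein regulator gene Rgs10 at 63.6 ± 1.22 FPKM, of which Ctsd and Cd9 are expressed by many other cells. Of the 20 tested, 6 were called higher than the median gene (30%, against 26% of all genes) and 7 lower (35%, against 22.3%).

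Between the libraries the set varied in both directions. Of the 42 tested members, 11 had their highest value in library 1, 13 in library 2 and 18 in library 3, where 36.5%, 32.6% and 30.9% of all genes tested did. These counts depend on the scale: after rescaling each library to a sum of 1000000, which raises the median gene by 0.428, 0.286 and 0.649 log2 units in libraries 1, 2 and 3, they were 7, 5 and 30 of 42 (16.7%, 11.9% and 71.4%), where 24.1%, 10.7% and 65.2% of all genes tested were highest in libraries 1, 2 and 3. The shift to library 3 was therefore one of all genes. The median deviation of the 4 tested complement genes from their mean over the libraries was -0.207 log2 units in library 1, 0.0894 in library 2 and 0.119 in library 3, where that of all genes tested was 0.0105, -0.0007 and -0.0064. The spread of C1qa between libraries was 13.9%, with 7.57% given by counting error, and that of P2ry12 12.4%, with 5.3% given by counting error. For 18 of the 51 members with fragments in every library, the spread was no larger than the counting error, among them Fcrls, Selplg, Itgam and Tyrobp.

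Markers of other tissues moved between the libraries as well. All 7 tested choroid plexus genes were lowest in library 1, with Ttr, the transthyretin gene, at 392, 1071 and 1296 FPKM and Folr1 at 3.25, 7.08 and 9.16 FPKM, and their summed level over 8 genes was 400, 1090 and 1320 FPKM. Of all 13337 genes tested, 4403 were lowest in library 1 and 4869 were highest there. Among the perivascular and activated genes, Mrc1, Ms4a7, Cd163, Cd74, Spp1 and Clec7a were lowest in library 1. Pf4, Lyve1, F13a1, Gpnmb, Cst7 and Itgax were highest there, and Lyz2 and Lgals3 were neither. The part of choroid plexus or meningeal tissue in these values was not tested. Of the blood leukocyte genes, 14 of 15 were below a mean of 1 FPKM and 6 were listed at 0 in all libraries. Of all 39377 rows, 20331 were listed at 0 in all libraries and 13337 reached a mean of 1 FPKM. The T cell genes Cd3d and Cd3e were among those at 0, and the monocyte gene Ccr2 was at 0, 0.09 and 0.14 FPKM. The summed level of the 15 leukocyte genes was 6.16, 3.01 and 4.75 FPKM. Haemoglobin genes of red cells were present, with Hbb-bs at 545, 657 and 504 FPKM. Of the markers of neurons, astrocytes and oligodendrocytes, 6 of 6 each had a mean of at least 1 FPKM. So did 7 of 7 endothelial genes, 7 of 8 choroid plexus genes and 13337 of the 19046 genes above 0. This cut alone therefore does not identify the tissue. Against the median gene, 6 of 6 neuron, 6 of 6 astrocyte and 4 of 6 oligodendrocyte markers were called higher, where 26% of all genes were.

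**Figure D4:**
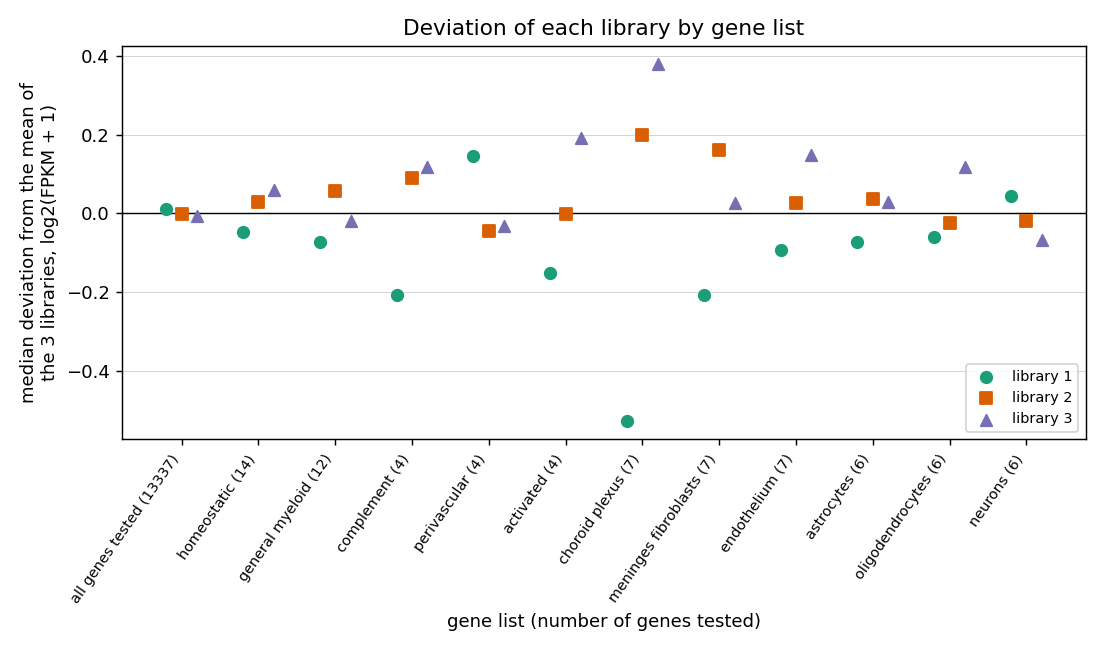
Points are the median deviation of each library from the mean of the 3, in log2(FPKM + 1) (y axis), for gene lists with the number of genes tested in brackets (x axis). Choroid plexus genes lie at -0.527 in library 1 and 0.379 in library 3, and complement genes at -0.207 in library 1.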

How the data were processed

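RNA-seq values of 3 libraries of hippocampus were used. The authors deposited 1 table of FPKM, 1 column per library, per the file headers. Bowtie2 and GRCm38 (mm10) are named in the submitters' processing notes; of the counter, the annotation and the strand setting, nothing is stated in the sources used here. The 53 members and all gene lists were chosen with earlier results of these data known, and each member is named.

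FPKM were used as deposited. Depth was estimated from the steps of low FPKM values, in genes with 1 GENCODE M21 transcript of at least 800 bases, by searching for the depth and the bases taken off the length that gave whole fragments. It came to about 3690000, 4090000 and 5890000 fragments, with 93.4%, 91.8% and 91.0% of values equal to at most 4 fragments within 0.15 of a whole number; both settings were fitted to these values. For a transcript of 2 kb, 3 fragments are 0.473, 0.412 and 0.289 FPKM. Fragment numbers of members use 1 annotated transcript each, are approximate, and cover counting error only.

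Differences in log2(FPKM + 1), a scale that understates those of low genes, were tested with limma 3.58.1 in R 4.3.3 (treat, null of at most 1 log2 unit) across all genes with a mean of at least 1 FPKM, and checked on data made with known differences; fewer of these were recovered than first required, and the requirement was lowered after that was seen. Alternatives covered pseudocount, filter, null, TPM, reference and left-out libraries. Near-identical copies (95% identity over 150 bases) were sought with BLAST 2.17.0 among GENCODE transcripts and found for 8 members; exons of 7 members overlap another gene. The depth estimate, the search for copies and the promoter motifs were added after the data were seen. FPKM of different genes also differ by mappability and GC content. Some genes of the further lists are not reported here.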

Additional observations from a re-analysis of the deposited data

How the results depend on the processing

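With pseudocounts of 0.1 and 0.5 FPKM, 42 of 42 members kept their call against the median gene and 41 of 41 against Cx3cr1. Against the median gene, 3474 genes were called higher and 2977 lower. With no filter these were 5955 and 6032, with a mean of at least 5 FPKM 2189 and 1091, with a null of no difference 5757 and 5739, and with a null of 2 log2 units 1759 and 156. The 7 members called higher became 18 with no filter, 4 at a mean of at least 5 FPKM, 18 with a null of no difference and 2 with a null of 2 log2 units. The count of members called lower went from 13 to 2, 21 and 1 under the last 3 of these settings. The 2 at a mean of at least 5 FPKM were the general myeloid gene Spi1 and the perivascular gene Pf4 (limma adjusted p = 0.00552 and 0.0304). Neither was among the 13, which all have means under 5 FPKM and were dropped by that filter. By group, complement genes went from 3 higher and 1 lower to 3 lower with no filter, 0 lower at a mean of at least 5 FPKM, and 0 and 0 with a null of 2 log2 units. Homeostatic genes went from 1 higher and 4 lower to 5 and 0 with no filter, 0 and 0 at a mean of at least 5 FPKM, 5 higher with a null of no difference, 0 and 0 with a null of 2 log2 units, and between 2 and 4 lower when a library was left out. General myeloid genes went from 1 higher and 2 lower to 7 higher with no filter, 1 lower at a mean of at least 5 FPKM, 7 and 5 with a null of no difference, 0 lower with a null of 2 log2 units, and between 1 and 2 lower when a library was left out. The count of perivascular genes called lower went from 3 to 1 at a mean of at least 5 FPKM, which was Pf4 and not among the 3. It was 1 with a null of 2 log2 units and 5 in TPM. The count of activated genes called lower went from 3 to 0 and 0 at a mean of at least 5 FPKM and with a null of 2 log2 units. By construction the filters change which gene is the median and which genes are tested, and the nulls the size asked for.

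Against Cx3cr1, 2878 genes were higher and 3688 lower. A null of no difference gave 5000 and 6448, and a null of 2 log2 units 1398 and 716. With no filter 9478 were lower, and at a mean of at least 5 FPKM 0 were, since few such genes can lie that far below Cx3cr1. Of the members, 14 were lower, and 25 with no filter, 0 at a mean of at least 5 FPKM, 23 with a null of no difference and 2 with a null of 2 log2 units; the 7 higher became 1 with a null of 2 log2 units. With P2ry12 as the reference 1004 genes were higher and 7881 lower, with 0 members higher and 29 lower. With Tyrobp these were 641 and 9731, and 0 and 35. By group, complement genes went from 3 higher and 1 lower to 4 lower with no filter, 0 lower at a mean of at least 5 FPKM, 0 and 0 with a null of 2 log2 units, and 0 higher with P2ry12 or Tyrobp. Homeostatic genes went from 1 higher and 4 lower to 0 lower at a mean of at least 5 FPKM, 2 and 8 with a null of no difference, 0 and 0 with a null of 2 log2 units, 0 and 11 with P2ry12, 0 and 13 with Tyrobp, and between 0 and 1 higher when a library was left out. General myeloid genes went from 1 higher and 2 lower to 4 lower with no filter, 0 lower at a mean of at least 5 FPKM, 3 and 5 with a null of no difference, 0 and 1 with a null of 2 log2 units, 0 and 7 with P2ry12, and 0 and 11 with Tyrobp. The 3 perivascular genes called lower became 5 with no filter, 0 at a mean of at least 5 FPKM, 1 with a null of 2 log2 units and 5 in TPM, and the 3 activated genes 7, 0 and 0 under the first 3 of these. By construction a higher reference turns the sign of members between it and Cx3cr1. Those that turned and were called in either fit were, with P2ry12, Itgb5 (-1.32), Aif1 (-1.42) and Hexim1 (-1.38), and with Tyrobp, Fcrls (-2.02), Ly86 (-1.68), Itgb5 (-2.04), Trem2 (-1.96), Aif1 (-2.14), Csf1r (-1.85), P2ry12 (-0.72), C1qa (-0.29), C1qc (-0.37), C1qb (-0.54), Hexim1 (-2.1), Cd47 (-0.58), Fcer1g (-1.36) and Fcgr3 (-1.85).

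Rescaled to TPM, an alternative added after the data were seen for the library counts, 7, 5 and 30 members were highest in libraries 1, 2 and 3 in place of 11, 13 and 18. By construction this scaling lifts all genes most in library 3, where 65.2% of all genes tested were then highest. Divided by each library's median gene, the counts stayed within 1.5 times. Without library 1 the mean ratio of P2ry12 to Mrc1 went from 19.3 to 12.2 and that of C3ar1 to C5ar1 from 4.18 to 2.1. No paired analysis was possible because there is 1 group of samples. Depth limits 16 members, which had under 10 estimated fragments in at least 1 library.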

Other observations

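In a further list of 14 genes that rise in activated microglia, the 4 with the highest means are also expressed by other brain cells. Apoe, the lipid carrier gene of astrocytes, was at 3960 ± 167 FPKM, the fatty acid binding protein gene Fabp5 at 740 ± 24.9 FPKM, the cathepsin B gene Ctsb at 149 ± 3.76 FPKM and the tetraspanin gene Cd63 at 98.9 ± 4.53 FPKM. Of the cytokine and chemokine genes of the same list, Ccl6 was at 1.14, 2.21 and 0.85 FPKM and was called lower than the median gene (difference -2.28, limma adjusted p = 0.00125). Tnf and Ccl4 were listed at 0 in all libraries, Il1b at 0.25, 0 and 0.15 FPKM, and Ccl3 at 1.60, 0 and 0.33 FPKM. The growth factor gene Igf1 was at 3.26, 4.05 and 2.44 FPKM. Of the 10 genes of the list that were tested, 6 were called higher than the median gene (60%, against 26% of all genes). Ccl6 and Igf1 were the 2 called lower (20%, against 22.3%).

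Among ligands that act on microglia, Cd200, a neuronal inhibitory ligand gene, was at 172 ± 9.38 FPKM, while its receptor gene Cd200r1 was listed at 0, 0.44 and 0.10 FPKM. Gas6, the bridging ligand of Mertk and Axl, was at 37.2 ± 4.16 FPKM, and Axl at 17.6 ± 3.69 FPKM.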
